A study of Homo sapiens with 2 samples.

Results

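The expression of 55 genes of the cell cycle and of DNA replication was examined in HepG2 cells, a human hepatocellular carcinoma line, of the 60623 gene entries counted by RNA sequencing. The genes were given as a list of names (cyclins, cyclin-dependent kinases and their inhibitors, E2F and pocket proteins, replication factors and mitotic genes). All 55 were matched by Ensembl identifier to an entry of the count files. From their known roles, 21 were assigned to G1/S and 23 to G2/M, and 11 were left without a phase because their transcripts are not known to peak in one phase or because their role spans several. The cells of both groups were wild type and were loaded with 1 mM free fatty acids (FFA), a mixture of oleic and palmitic acid, for 24 h. The FFA group received no 9-cis-RA, and the FFA + 9-cis-RA group also received 10 μM 9-cis-retinoic acid, a ligand of the RXR and RAR nuclear receptors, for 24 h. By the study's methods the fatty acids were bound to albumin and the DMSO solvent was held equal between groups. Those methods place 9-cis-RA after the FFA treatment, while the study's results call it a co-treatment, so the order is not certain. Each group had 1 library of poly(A) RNA, and the sample records place both in the same batch. Cells without fatty acids were not analysed here, so the comparison concerns 9-cis-RA on top of FFA only, in a tumor line that divides in culture and not in resting hepatocytes.

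Cells enter the cycle when D-type cyclins with CDK4 or CDK6, followed by cyclin E with CDK2, inactivate the retinoblastoma pocket proteins and release E2F factors, which switch on genes for replication. The MCM helicase is loaded on origins in G1 by CDC6 and CDT1 and fires in S phase together with the GINS complex and the polymerases. Genes for mitosis are switched on later, mainly through MYBL2 and FOXM1 at promoters carrying a cell cycle homology region (CHR), and the spindle checkpoint then holds the anaphase-promoting complex (APC/C) until chromosomes are attached.

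The promoters shown here belong to 3 of the MCM genes, which were lower as a set, to BUB1B and CDKN3, the lowest members, and to CCNB2, a mitotic cyclin with nearly equal normalized counts in both libraries. They are taken from RefSeq (GRCh38.p14), run 5′ to 3′ from 250 bases before to 50 bases after the start of the transcript, and have motif matches in capitals. The motifs were TTTNNCGC (E2F-like), TTTGAA (CHR) and CCAAT (the box bound by NF-Y), searched on both strands, and a match on the reverse strand is shown as it reads on the printed one. The MCM3 promoter lies at chr6:52284693-52284992 (minus strand), MCM6 at chr2:135876394-135876693 (minus strand) and MCM7 at chr7:100101348-100101647 (minus strand).
MCM3: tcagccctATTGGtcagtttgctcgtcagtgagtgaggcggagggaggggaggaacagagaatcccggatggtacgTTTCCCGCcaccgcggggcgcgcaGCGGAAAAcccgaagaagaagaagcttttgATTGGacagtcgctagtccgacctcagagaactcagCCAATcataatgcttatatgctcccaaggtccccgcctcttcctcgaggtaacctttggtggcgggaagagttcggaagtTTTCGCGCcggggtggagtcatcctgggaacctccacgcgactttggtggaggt
MCM6: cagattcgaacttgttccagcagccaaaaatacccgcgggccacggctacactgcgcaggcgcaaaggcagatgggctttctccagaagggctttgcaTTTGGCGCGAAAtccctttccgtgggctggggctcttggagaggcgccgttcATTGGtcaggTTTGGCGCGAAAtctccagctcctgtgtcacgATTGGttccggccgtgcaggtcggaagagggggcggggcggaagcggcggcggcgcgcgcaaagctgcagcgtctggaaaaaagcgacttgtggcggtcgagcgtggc
MCM7: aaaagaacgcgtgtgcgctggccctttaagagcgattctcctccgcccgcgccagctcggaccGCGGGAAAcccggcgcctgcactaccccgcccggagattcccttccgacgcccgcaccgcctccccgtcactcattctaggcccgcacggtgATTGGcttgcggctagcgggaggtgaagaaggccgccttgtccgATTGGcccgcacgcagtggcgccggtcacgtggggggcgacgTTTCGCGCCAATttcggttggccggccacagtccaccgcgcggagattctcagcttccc
The BUB1B promoter lies at chr15:40160819-40161118 (plus strand), CDKN3 at chr14:54396757-54397056 (plus strand) and CCNB2 at chr15:59104896-59105195 (plus strand).
BUB1B: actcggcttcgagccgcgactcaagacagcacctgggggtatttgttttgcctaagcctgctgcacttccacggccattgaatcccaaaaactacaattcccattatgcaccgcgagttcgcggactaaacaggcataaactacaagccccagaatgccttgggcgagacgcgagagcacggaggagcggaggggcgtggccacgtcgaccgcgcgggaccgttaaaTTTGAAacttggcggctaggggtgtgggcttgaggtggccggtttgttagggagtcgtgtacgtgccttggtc
CDKN3: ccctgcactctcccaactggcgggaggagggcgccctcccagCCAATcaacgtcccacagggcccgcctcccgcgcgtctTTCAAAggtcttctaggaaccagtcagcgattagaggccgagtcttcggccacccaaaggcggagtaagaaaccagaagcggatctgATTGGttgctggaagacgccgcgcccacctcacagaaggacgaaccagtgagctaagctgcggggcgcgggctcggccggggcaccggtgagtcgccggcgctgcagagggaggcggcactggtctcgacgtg
CCNB2: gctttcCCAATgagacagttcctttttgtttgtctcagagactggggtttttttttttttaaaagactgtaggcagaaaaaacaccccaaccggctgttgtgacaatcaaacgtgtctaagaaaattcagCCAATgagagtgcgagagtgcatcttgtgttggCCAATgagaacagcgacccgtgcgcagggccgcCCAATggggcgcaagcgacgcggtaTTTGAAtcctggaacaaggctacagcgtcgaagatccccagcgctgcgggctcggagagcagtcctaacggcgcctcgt
MCM3 held 3 E2F-like matches, MCM6 held 4 and the MCM7 promoter shown held 2, and none of these promoters held a CHR match. In MCM6 the 4 matches are 2 pairs of overlapping matches, each pair with 1 match on either strand, and in MCM7 an E2F-like match overlaps a CCAAT match. MCM7 has other RefSeq promoters, not shown, at chr7:100100705-100101004 and chr7:100100480-100100779, which held 0 E2F-like and 0 CHR matches. BUB1B, CDKN3 and CCNB2 each held 1 CHR match and no E2F-like match, and CCNB2 also held 4 CCAAT matches. The CHR match of BUB1B lay 23 bases before the start and that of CCNB2 29 bases before it. BUB1B, with the largest difference of all members, and CCNB2, picked for having almost none, had a CHR match at nearly the same place. BUB1B held 0 CCAAT matches, and a link between the matches and the differences of these genes was not tested.

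The same split by phase was seen over all member promoters. Of the 55 members, 44 had an entry in the RefSeq promoter table, with 62 promoters between them, and CCND1, CCND2, CCNE2, CDK2, MCM4, MCM5, FOXM1, AURKA, TTK, BIRC5 and UBE2C had none. An E2F-like match was found in 63.6% of the 22 promoters of G1/S members and in 7.69% of the 26 promoters of G2/M members, beside 6.89% of all 35116 promoters. A CHR match was found in 4.55% of G1/S and 50% of G2/M promoters, beside 15.2% of all promoters. CCAAT was frequent in both phases, at 68.2% and 76.9%, beside 34.6% of all promoters. Further replication and mitosis genes, listed apart from the members, showed the same order, with an E2F-like match in 38.2% of 68 replication promoters and 14% of 57 mitosis promoters and a CHR match in 7.35% and 68.4%. A match is a run of letters, not a measured binding site, and its absence says only that these letters are not in this window.

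**Figure D1:**
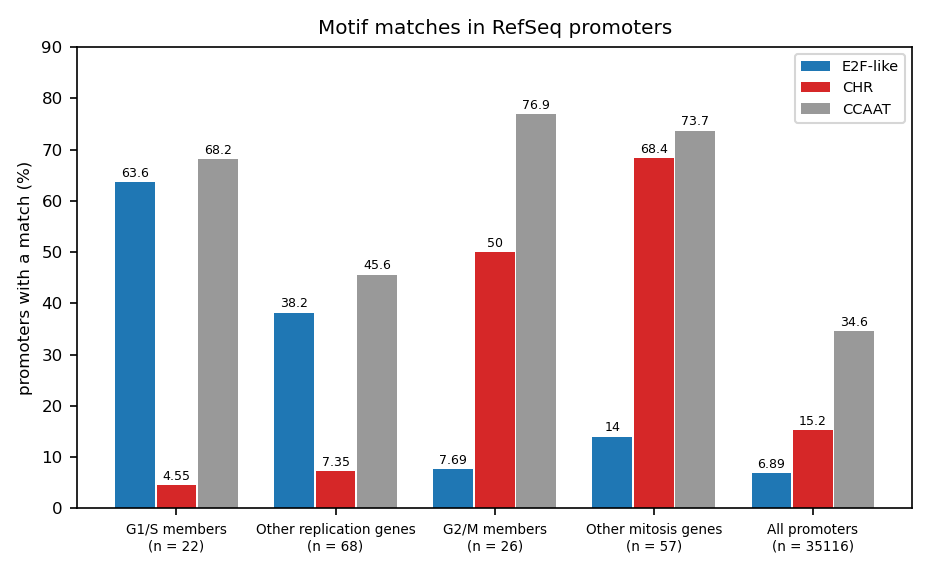
Share of promoters (percent, vertical axis) that hold an E2F-like, CHR or CCAAT match, for G1/S members, other replication genes, G2/M members, other mitosis genes and all promoters of the table, with the number of promoters under each group. E2F-like matches stand at 63.6% in G1/S members and 7.69% in G2/M members, and CHR matches at 4.55% and 50%.

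Counts were scaled with median-of-ratios size factors. A log2 fold change, or log2 difference, compares the normalized counts plus 1 of FFA + 9-cis-RA with those of FFA, so a negative value means lower with 9-cis-RA. Where a pair of counts or levels is given, FFA comes first. Values in brackets after a fold change are exact 95% intervals for the share of the gene's counts, which cover counting error only and compare these libraries, not the conditions. With 1 library per group the spread between cultures is unknown, no test was possible, and no SD or p-value is given. The libraries held 60821539 (FFA) and 57669670 (FFA + 9-cis-RA) counts. The comparison covered the 20431 entries with 10 or more counts in the libraries together, and all 55 members were among them. The median log2 fold change was -0.020 over these genes and 0.0062 over the 10298 genes with at least 1000 counts, a class that holds every member but CDKN2B. All 7 hepatocyte and HepG2 markers listed were detected, from 341 and 278 counts of TTR (transthyretin), the lowest, to 273242 and 134862 of AFP (alpha-fetoprotein), with 186609 and 112866 of ALB (albumin). Of 5 leukocyte and macrophage markers, LYZ (lysozyme) had 5883 and 3332 counts and the others at most 34 in a library, with 0 in both for PTPRC. Another entry covers 81.6% of the exon length of CD68 on the same strand. Fragments that overlap several genes were not counted, so its 5 and 15 counts may hold only part of its transcripts. The 5 fibroblast and stellate markers had at most 37 counts in a library (PDGFRB), with 0 in both for DCN, and the 4 endothelial markers at most 184 (VWF), with 0 in both for KDR. The summed counts of these 3 lists were 5922 and 3371, 49 and 30, and 252 and 157 over the markers with at least 10 counts, and their part in the values of the cell cycle genes was not tested.

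Most cell cycle genes differed little between the libraries. Of the 55 members, 52 lay within 0.5 of equal expression on the log2 scale. BUB1B and CDKN3 lay below -0.5, where 14.3% of all compared genes, 7.85% of those with at least 100 counts and 4.38% of those with at least 1000 counts also lay. CDKN2B alone lay above 0.5, beside 9.03%, 3.48% and 1.73% of the same classes. The study's criterion joins a log2 fold change past 1 with an adjusted p-value, and only the fold part could be applied here. At this threshold of 1, BUB1B was below -1 (4.9% of compared genes) and CDKN2B above 1 (3.37%). These counts of members were small beside the shares over all compared genes. Below -0.5 the count was near the share over genes with at least 1000 counts, the class of every member but CDKN2B. CDKN2B is outside that class, so no member of the class lay above 0.5. At the threshold of 1, 68 of the 10298 genes of the class lay below -1, BUB1B included, and 21 lay above 1.

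Small differences leaned toward lower values with 9-cis-RA. The median over the members was -0.065, and 36 were lower and 19 higher. The counting interval lay below 0 for 30 members and above 0 for 15, and it included 0 for 10. These counts were 24 and 16 with TMM scaling and 20 and 17 with total-count scaling, where most of the lean was gone. Among all compared genes the interval lay below 0 for 25.7% and above 0 for 22.5%, and among genes with at least 1000 counts for 34.7% and 34.4%, so at this depth an interval on one side of 0 is common. The summed normalized counts of the members differed by -0.094 (-0.10 to -0.088), or by -0.081 without BUB1B. On the same scale the summed counts of all compared genes differed by -0.049 and those of genes with at least 1000 counts by -0.049, which is the baseline for this and every other summed value given here. Total-count scaling, which moves the median of all genes by 0.049, left 30 members lower and 25 higher and changed the sign of 6 members whose log2 fold change was at most 0.042 in size.

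**Figure D2:**
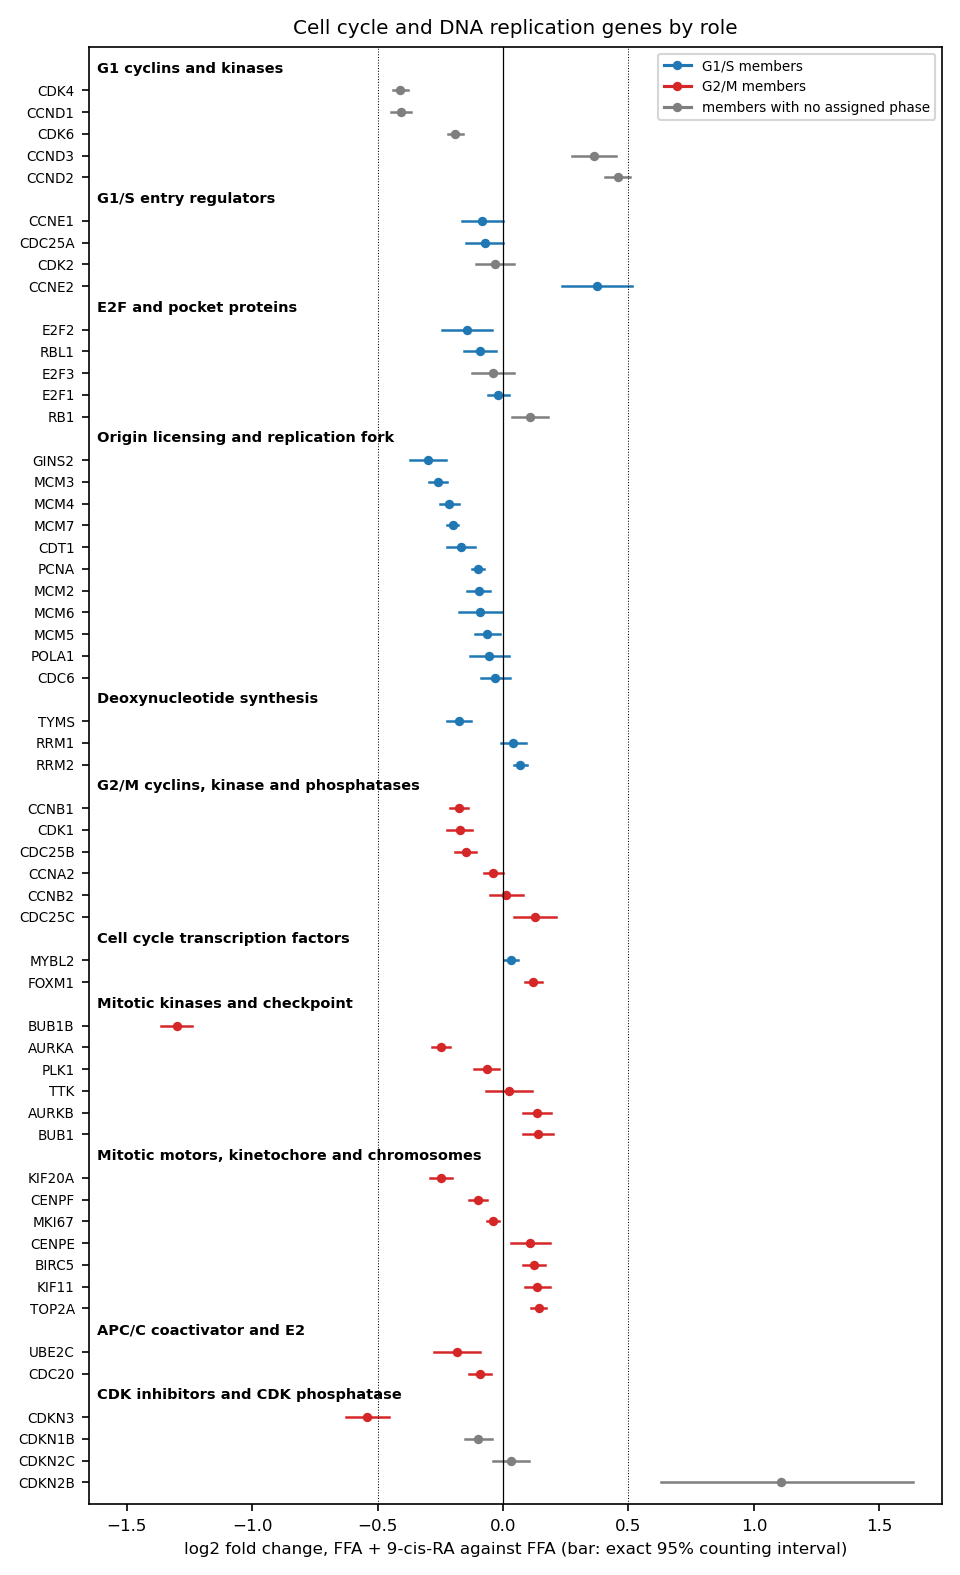
Log2 fold change of each of the 55 members (points, horizontal axis) with its exact 95% counting interval (bars), grouped by role, for FFA + 9-cis-RA against FFA with 1 library each. Dotted lines mark -0.5 and 0.5, past which only BUB1B, CDKN3 and CDKN2B lie, and all 11 origin licensing and fork genes sit left of 0.

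The 3 D-type cyclins, the sensors of growth signals that activate CDK4 and CDK6, differed in opposite directions. CCND1 (ENSG00000110092, chr11:69641087-69654474) had 12598 counts with FFA and 9327 with FFA + 9-cis-RA, a log2 difference of -0.41 (-0.44 to -0.37). CCND2 (ENSG00000118971, chr12:4273762-4305353) had 5833 and 7855 counts, a difference of 0.46 (0.41 to 0.51). CCND3 (ENSG00000112576, chr6:41934933-42050357) had 1896 and 2393 counts, a difference of 0.36 (0.28 to 0.45). CCND1 was thus lower and the other D cyclins higher with 9-cis-RA, and the counts of all 3 together differed by -0.027 (-0.055 to 0.0016). Per length, CCND1 stood at 42.9 and 33.5 FPKM (counts scaled by exon length and library total), above CCND2 at 13.4 and 19.0 and CCND3 at 5.37 and 7.15 in both libraries. CCND2 lay just past the central 95% of genes with at least 1000 counts, which ran from -0.66 to 0.45. Another annotated entry covers 13.9% of the exon length of CCND2 on the same strand and had 0 counts in both libraries. Fragments that overlap both entries were not counted, so the counts of CCND2 may hold only part of its transcripts.

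CDK4, the main kinase partner of these cyclins, had 20181 and 14905 counts, a log2 difference of -0.41 (-0.44 to -0.38). Its level was 107 FPKM in FFA and 83.5 FPKM in FFA + 9-cis-RA, the fourth highest member in both. CDK6, the alternative partner, had 18216 and 15661 counts, a difference of -0.19 (-0.22 to -0.16). Both G1 kinases and the most abundant D cyclin were therefore lower, and the less abundant D cyclins higher.

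The genes that follow at the G1/S border differed less, apart from CCNE2. CCNE1 and CCNE2 encode the cyclin E proteins that activate CDK2. CCNE2 had 755 and 961 counts, a log2 difference of 0.38 (0.24 to 0.52), at a level of 2.82 and 3.79 FPKM. CCNE1, more abundant at 16.7 and 16.3 FPKM, had 2496 and 2312 counts and a fold change of -0.083 (-0.17 to -0.0006). CDK2 had 2872 and 2754 counts (-0.033) and CDC25A, the phosphatase that activates it, 3164 and 2951 (-0.073). The 2 cyclin E genes thus had opposite signs, but CCNE1 was close to level. Its upper bound was nearer to 0 than the shift made by TMM scaling, 0.020. It lay at -0.034 with total-count scaling and at -0.0054 with the length trend removed.

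E2F transcription factors and pocket proteins were close to equal. E2F1, which activates replication genes, had 9096 and 8806 counts, a log2 difference of -0.019 (-0.062 to 0.023). E2F2 was the lowest of the group, with 1755 and 1559 counts and -0.14 (-0.24 to -0.044), and RB1, the retinoblastoma protein that holds E2F factors in check, the highest, with 2937 and 3103 counts and 0.11 (0.034 to 0.18). E2F3 lay at -0.039 and the pocket protein gene RBL1 at -0.093.

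Genes for origin licensing and the replication fork were lower as a group. With median-of-ratios scaling, all 11 lay below 0 in the FFA + 9-cis-RA library. The interval lay below 0 for 9 of them (81.8%), beside 34.7% of genes with at least 1000 counts. Their summed counts, 127520 and 112202, differed by -0.16 (-0.17 to -0.15). The sign turned for CDC6 with total-count scaling (0.019) and for PCNA with a trend on gene length removed (0.010). The group spanned -0.30 to -0.031, so each difference alone was modest. GINS2, a subunit of the GINS complex that activates the helicase, was the lowest, with 3516 and 2804 counts and -0.30 (-0.37 to -0.23). CDC6, a loader of the MCM helicase, was nearest to 0, with 4963 and 4767 counts.

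The 6 subunits of the MCM2 to MCM7 helicase were all lower, each with an interval below 0 under median-of-ratios scaling. The upper bounds of MCM5, -0.014, and MCM6, -0.0054, were nearer to 0 than the shift made by TMM scaling, 0.020. All 6 kept their sign under the other scalings and the trend removals, with MCM5 at -0.013 under total-count scaling. Pseudocounts and count minimums could not turn the sign at these counts. MCM3 (ENSG00000112118, chr6:52264014-52284881) had 15010 and 12304 counts, a log2 difference of -0.26 (-0.29 to -0.22). MCM4 had 12034 and 10176 counts (-0.21) and MCM7, the most abundant subunit at 126 and 114 FPKM, 33725 and 28779 (-0.20). The other subunits lay nearer to 0. MCM2 had 8097 and 7426 counts (-0.097), MCM6 2304 and 2122 (-0.091) and MCM5 6992 and 6569 (-0.062). Together the 6 genes had 78162 and 67376 counts, a difference of -0.19 (-0.20 to -0.17). Within the complex MCM3, MCM4 and MCM7, the subunits with the most counts, thus lay at -0.20 or lower, and MCM2, MCM5 and MCM6 at -0.097 or nearer to 0. This grouping was drawn after the values were seen. With the expression trend removed MCM7 lay at -0.14 and MCM6 at -0.10, and with total-count scaling MCM4 lay at -0.17 and MCM7 at -0.15. In both libraries MCM6 was the subunit with the lowest level, at 9.16 and 8.90 FPKM.

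The remaining licensing and fork genes lay in the same range. CDT1, which loads MCM with CDC6, had 5469 and 4774 counts (-0.17). PCNA, the sliding clamp of the polymerases, had 32656 and 29879 counts (-0.10) and the highest level of all members, 383 and 369 FPKM. POLA1, the catalytic subunit of polymerase alpha, had 2754 and 2602 counts (-0.054, -0.13 to 0.024).

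Enzymes that supply deoxynucleotides did not share this direction. TYMS, thymidylate synthase, had 7471 and 6484 counts, a log2 difference of -0.18 (-0.23 to -0.13). RRM1 and RRM2, the large and small subunit of ribonucleotide reductase, had 6639 and 6702 counts (0.041, -0.0079 to 0.090) and 25321 and 26063 counts (0.069, 0.044 to 0.094). TYMS was thus lower and the RRM genes level or slightly higher.

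**Figure D3:**
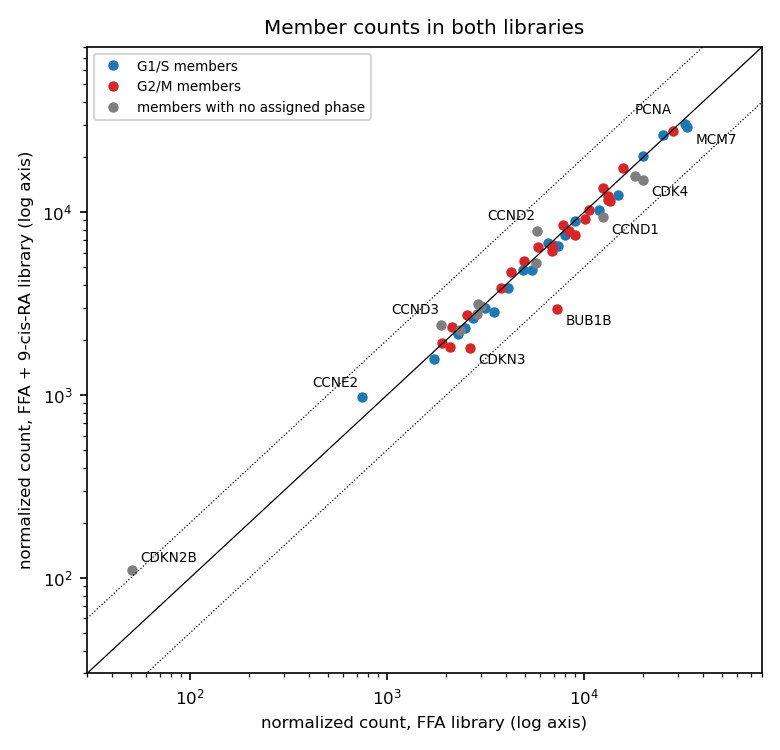
Normalized counts of the 55 members in the FFA library (horizontal, log axis) and the FFA + 9-cis-RA library (vertical, log axis), colored by phase, with the line of equality and dotted lines at a log2 fold change of -1 and 1. Most points lie on or near equality, BUB1B lies below the lower dotted line, and CDKN2B, with 51 and 109 counts, lies just above the upper one.

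Cyclins and CDK1 of the G2/M transition were mixed. CCNB1 and CDK1, which form the kinase that starts mitosis, had 13313 and 11555 counts, a log2 difference of -0.18 (-0.21 to -0.14), and 6958 and 6058 counts, -0.17 (-0.22 to -0.12). CCNB2, a second B-type cyclin, had 3833 and 3795 counts (0.013, -0.052 to 0.078), and CCNA2, the cyclin of S and G2, 10716 and 10235 (-0.039, -0.078 to 0.0006). The phosphatases that activate CDK1 differed in sign, with CDC25B at 10210 and 9031 counts (-0.15) and CDC25C at 2168 and 2324 (0.13, 0.043 to 0.21). Both transcription factors of late cell cycle genes were slightly higher. FOXM1 had 12637 and 13478 counts (0.12, 0.086 to 0.16) and MYBL2 20079 and 20121 (0.031, 0.0024 to 0.059).

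BUB1B stood apart from every other member. It encodes BUBR1, the spindle checkpoint protein that inhibits APC/C as part of the mitotic checkpoint complex. BUB1B (ENSG00000156970, chr15:40161023-40221136, plus strand) had 7393 counts with FFA alone and 2942 with 9-cis-RA added. The log2 fold change was -1.30 (-1.36 to -1.24), a change of -59.4% in normalized count, and it ran from -1.30 to -1.25 over the alternatives. Its level was 27.2 and 11.4 FPKM, which placed it at rank 26 of the members in FFA and rank 44 in FFA + 9-cis-RA. Of the 10298 genes with at least 1000 counts, 26 were as low or lower, BUB1B included. The other annotated genes PAK6 and BUB1B-PAK6, the readthrough transcript, cover 10.2% of its exon length on the same strand. PAK6 had 3 and 3 counts and BUB1B-PAK6 0 and 0. Fragments that overlap several genes were not counted, so these low counts do not measure the readthrough. The counts of BUB1B may for the same reason hold only part of its transcripts.

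Genes beside BUB1B on chromosome 15 did not share its difference. The 12 other genes that reach within 250 kb of either end of BUB1B with at least 100 counts over both libraries lay between -0.18 and 0.28. KNSTRN, which encodes another spindle protein, had 3031 and 2937 counts (-0.018, -0.091 to 0.056), and BMF, on the other side, 1478 and 1429 (-0.021, -0.13 to 0.085). The lowest neighbor, CCDC9B, had 1166 and 1011 counts (-0.18), and the highest, SRP14-DT, 76 and 91 (0.28, -0.17 to 0.75).

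**Figure D4:**
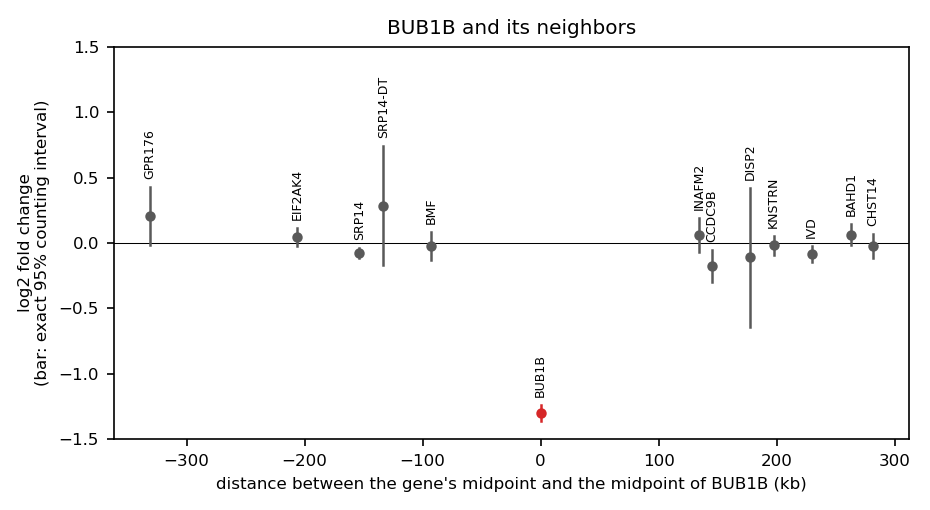
Log2 fold change of BUB1B (red) and of the 12 genes that reach within 250 kb of either of its ends and had at least 100 counts (gray) against the distance between gene midpoints in kb, with exact 95% counting intervals as bars. BUB1B lies at -1.30 and its neighbors between -0.18 and 0.28.

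Other kinases and checkpoint genes of mitosis lay on both sides of 0. AURKA, the centrosome kinase, had 13741 and 11366 counts, a log2 difference of -0.25 (-0.28 to -0.21), and AURKB, the kinase of the chromosomal passenger complex, 4973 and 5354, 0.13 (0.078 to 0.19). BUB1, the checkpoint kinase related to BUBR1, had 4300 and 4644 counts, 0.14 (0.079 to 0.20). BUB1B and BUB1 thus had opposite signs. PLK1, the polo-like kinase, had 6926 and 6494 counts (-0.065) and TTK, the kinase at the top of the spindle checkpoint, 1910 and 1906 (0.025, -0.068 to 0.12).

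Motors, kinetochore proteins and chromosome proteins of mitosis were also split. KIF20A, a kinesin of cytokinesis, was the lowest, with 9036 and 7471 counts and -0.25 (-0.29 to -0.20). TOP2A, the topoisomerase that untangles chromosomes, was the highest, with 15980 and 17293 counts and 0.14 (0.11 to 0.17). Beside TOP2A, 3 genes lay between 0.11 and 0.14, namely KIF11, the motor that separates the spindle poles, BIRC5, which encodes survivin of the passenger complex, and CENPE, a kinetochore motor. CENPF, a large kinetochore protein, lay at -0.10. MKI67, the gene of the proliferation antigen Ki-67, had 28698 and 27349 counts, a difference of -0.042 (-0.066 to -0.018) that took the opposite sign with total-count scaling and with a trend on expression removed. The summed counts of the 7 genes differed by 0.0001 (-0.014 to 0.014).

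Both members that act with APC/C were slightly lower. CDC20, the coactivator held by the spindle checkpoint, had 8458 and 7784 counts, a log2 difference of -0.092 (-0.14 to -0.048). UBE2C, its ubiquitin-conjugating enzyme, had 2110 and 1823 counts, -0.18 (-0.27 to -0.092). Both have named pseudogenes with counts of their own, 237 and 205 for the one of CDC20 and 262 and 209 for the 5 of UBE2C, and fragments that map to several places were not counted, so these values are less certain than those of single-copy genes.

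The CDK inhibitors and the phosphatase CDKN3 held the remaining members past 0.5. CDKN3, which removes the activating phosphate from CDKs (ENSG00000100526, chr14:54396849-54420218, plus strand), had 2665 and 1797 counts. Its log2 fold change was -0.54 (-0.63 to -0.45), and it was -0.44 with a trend on gene length removed and -0.49 with total-count scaling, so it passed -0.5 in the other settings only. CDKN2B, the p15 inhibitor of CDK4 and CDK6 (ENSG00000147883, chr9:22002903-22009305, minus strand), had 51 counts with FFA alone and 109 with 9-cis-RA added. Its fold change was 1.11 (0.63 to 1.63), at the lowest level of all members in both libraries, 0.21 and 0.47 FPKM. The abundant inhibitors were near 0. CDKN1B, the p27 inhibitor, had 5724 and 5242 counts (-0.099, -0.15 to -0.045) and CDKN2C, the p18 inhibitor, 3041 and 3051 (0.032, -0.041 to 0.11).

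The comparison of G1/S with G2/M genes gave a small difference of medians. The 21 G1/S members had a median log2 fold change of -0.091, with 17 lower and 4 higher (CCNE2, RRM1, RRM2 and MYBL2), and intervals below 0 for 14 and above 0 for 3. The 23 G2/M members had a median of -0.042, with 13 lower and 10 higher, and intervals below 0 for 12 and above 0 for 8. Intervals thus lay below 0 for 66.7% of G1/S and 52.2% of G2/M members, and above 0 for 14.3% and 34.8%. Among genes with at least 1000 counts, 34.7% lay below 0 and 34.4% above. The difference of the medians, G1/S minus G2/M, was -0.049 on the log2 scale. Scaling shifts both medians alike and the count minimums drop no member, so these settings could not move the difference. It was -0.072 with the expression trend removed and -0.073 with the length trend removed. The median of the G2/M members itself took the opposite sign, 0.0073, with total-count scaling. By summed counts the phases stood at -0.091 (-0.10 to -0.082) and -0.074 (-0.083 to -0.065), and BUB1B alone carried much of the second value, which was -0.042 (-0.051 to -0.033) without it.

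Replication and mitosis genes outside the member list also differed from each other. Of 58 other replication and S-phase genes, 38 were lower and 20 higher, with a median of -0.047 and none past 0.5. Their intervals lay below 0 for 26 (44.8%) and above 0 for 11 (19.0%). Their median was 0.0023 with total-count scaling. Of 54 other mitosis genes, 16 were lower and 38 higher, with a median of 0.036. Their intervals lay below 0 for 9 (16.7%) and above 0 for 22 (40.7%). Among genes with at least 1000 counts these shares were 34.7% and 34.4%. Members and other genes together gave a median of -0.065 over 79 replication genes and 0.029 over 77 mitosis genes. The share of lower genes was 69.6% in the first set and 37.7% in the second, beside 48.7% of genes with at least 1000 counts.

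Single genes of these lists lay farther out than their medians. DUT, which clears dUTP, had 6154 and 4544 counts, a log2 difference of -0.41 (-0.47 to -0.35). GINS4, the partner of GINS2 in the GINS complex, had 2608 and 1990 counts (-0.36), and UNG, a DNA glycosylase that removes uracil, 5031 and 4103 (-0.27). The replication genes with the highest lower bound of the interval were ORC4, an origin recognition subunit, with 2233 and 2768 counts (0.34), and the clamp loader subunits RFC5, at 0.20, and RFC1, at 0.12. In the mitosis list CKS2, a CDK subunit, had 8090 and 5431 counts (-0.55), KIF22 lay at -0.27 and PSRC1 at -0.23. NEK2, a centrosome kinase, had 1990 and 2500 counts (0.36), CKAP2L lay at 0.28, and PRC1, a midzone protein, had 76 and 120 counts (0.68, 0.26 to 1.12). Other entries cover 57.6% of the exon length of PRC1 on the same strand, and fragments that overlap several genes were not counted, so its counts hold only part of its transcripts.

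**Figure D5:**
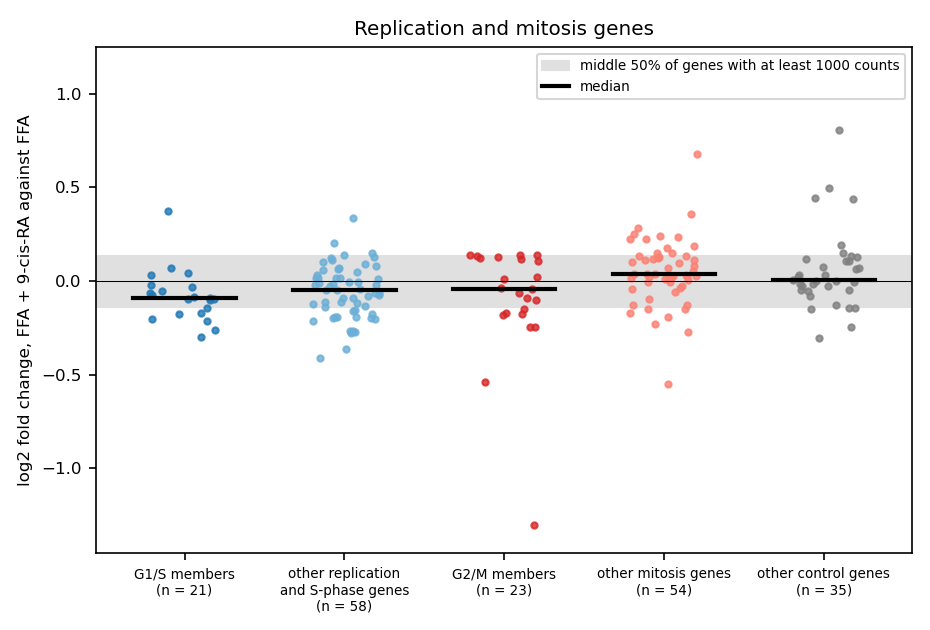
Log2 fold change of each gene (points) and median (black bar) for G1/S members, other replication and S-phase genes, G2/M members, other mitosis genes and other cell cycle control genes, with the number of genes under each. The medians are -0.091, -0.047, -0.042, 0.036 and 0.0054, and the gray band is the middle 50% of genes with at least 1000 counts.

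Of 36 further genes of cell cycle control, 35 could be compared, and CDKN1C, with 2 and 4 counts, was under the minimum. Their median was 0.0054. Beside 34.7% and 34.4% of genes with at least 1000 counts, intervals lay below 0 for 6 of the 35 (17.1%) and above 0 for 12 (34.3%). The one gene past 0.5 was CDKN2D, the p19 inhibitor of CDK4 and CDK6, with 785 and 1346 counts and a log2 fold change of 0.80 (0.68 to 0.93). Of the CDKN2 inhibitor genes listed here, CDKN2B and CDKN2D were higher and CDKN2C was level. CDKN1B, the p27 inhibitor, was slightly lower, at -0.099. BTG1, an antiproliferative gene, had 1072 and 1484 counts (0.50, 0.38 to 0.61). The repressive E2F factors differed in sign, with E2F7 at 1302 and 1739 counts (0.44) and E2F8 at 1643 and 1306 (-0.30). RBBP4, a histone chaperone of the DREAM complex, had 14742 and 12211 counts (-0.24), and RBL2, the pocket protein of that complex, 2437 and 2165 (-0.14).

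The motif content of a promoter went with almost no difference over all genes. Compared genes whose promoter holds an E2F-like match had a median log2 fold change of -0.0052 (1482 genes) and those without one -0.0028 (10801 genes). For CHR the medians were -0.019 (1703 genes) and -0.0005 (10580 genes), and for CCAAT 0.0008 (5180 genes) and -0.0046 (7103 genes).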

How the data were processed

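RNA sequencing of HepG2 cells treated with FFA or FFA + 9-cis-RA gave 1 library per group. Per the file headers, featureCounts 2.0.1 was run on reverse-strand pairs, and the values deposited by the authors are its counts for each gene without normalization. Multi-mapping and multi-overlapping fragments were not counted. The submitters' processing notes name GRCh38 and DESeq2, and the aligner and annotation release are not given in the sources used here. Symbols were matched by Ensembl identifier. Size factors came from DESeq2 1.42.0 and, as an alternative, edgeR 4.0.16 (R 4.3.3). Fold changes, exact Clopper-Pearson 95% intervals, FPKM (from the deposited counts and lengths, scaled by total counts) and motif searches used Python 3.11.15 with scipy 1.17.1, pandas 2.3.3 and statsmodels 0.14.6. The steps were tested on simulated data. Alternatives were other scalings, pseudocounts of 0.1 and 5, other count minimums and removal of trends on expression or gene length.

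The members and gene lists were chosen with earlier results of these data known. Genes named were the members past 0.5 and the lowest and highest of each role group, and in other lists the 3 highest and 3 lowest by the interval bound nearest to 0 with at least 100 counts. Further members, the neighbors of BUB1B and the spindle checkpoint genes were named after their values were seen. Markers of 4 cell classes served as a check of the cell line.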

Additional observations from a re-analysis of the deposited data

How the results depend on the processing

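No paired analysis was possible because each group had 1 library. Of 548 values under alternatives, 482 lay within the counting interval of the reported value, or for counts of genes differed by at most 1.5 times. The other 66 moved farther, and 0 values past 0.5 changed sign. Only BUB1B, CDKN3 and CDKN2B lay past 0.5. For medians, the range between the medians of the gene bounds was used, which is wider than a counting interval of the summed counts. Count minimums could not change a member's fold change and pseudocounts hardly could, so many of the 482 were fixed in advance. CDC6, CDK2, E2F1, E2F3, CCNA2, MKI67 and PCNA, which lay between -0.10 and -0.019, changed sign in at least 1 setting. The median of the G2/M members was -0.0070 with the expression trend removed, -0.0013 with the length trend removed and 0.0073 with total-count scaling. With the length trend removed or total-count scaling, 1 member lay below -0.5, because CDKN3 no longer passed, and with total-count scaling 2 lay above 0.5, with CCND2 at 0.51. Over all genes, 1131 lay below -0.5 and 502 above 0.5 with a minimum of 100 counts, where fewer genes were compared, and 6880 and 5476 without a minimum. Genes with few counts have wide intervals, and CDKN2B has the widest of the members. The difference between replicate cultures was not measured.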

Other observations

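A list of 12 spindle assembly checkpoint genes, chosen after the value of BUB1B was seen, was examined beside that gene. BUB1B was the one gene of the list below -0.5. KNL1, the kinetochore scaffold that recruits BUB1 and BUBR1, had 2347 counts with FFA alone and 3302 with 9-cis-RA added, a log2 difference of 0.52 (0.44 to 0.60). BUB3, the partner of both, had 10739 and 9449 counts (-0.16, -0.20 to -0.12), and MAD2L1, another part of the mitotic checkpoint complex, 4466 and 4711 (0.10, 0.045 to 0.16). ZW10 and ZWILCH, subunits of the RZZ complex, lay at 0.17 and 0.13, and KNTC1, the remaining subunit, at -0.17. MAD1L1 had 51 and 45 counts, and MAD2L1BP lay at -0.047. Another entry covers 41.55% of the exon length of MAD1L1 on the same strand, so its counts may hold only part of its transcripts, as for PRC1. Without BUB1B, the median of the G2/M members was -0.040.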
